A study of Mus musculus with 27 samples.

Results

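The Polycomb group genes described here are 10 genes of the Polycomb repressive complexes, chosen by name: Ezh1, Ezh2, Eed and Suz12 of PRC2, and Ring1, Rnf2, Bmi1, Cbx2, Cbx7 and Cbx8 of PRC1. All 10 were found among the 23382 gene symbols of the RNA-seq tables. PRC2 places methyl groups on lysine 27 of histone H3, with EZH2 or EZH1 as the enzyme and EED and SUZ12 as subunits it cannot work without. PRC1 carries a RING1 or RNF2 (RING1B) ubiquitin ligase for histone H2A, paired with a PCGF protein such as BMI1, and its CBX proteins bind the mark that PRC2 leaves. In B cells EZH2 is known for its high level in the germinal centre, where it holds down genes of cell cycle arrest and of plasma cell fate, and activating EZH2 mutations occur in germinal centre lymphomas.

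The libraries came from B220-positive cells of VavP-Bcl2 mice, a lymphoma model in which the Vav promoter drives Bcl2 in blood cells. Both groups carry that transgene and both began as fetal liver haematopoietic stem cells taken at E13.5. The SHMT2 group received MSCV-SHMT2, a retroviral vector for the mitochondrial serine hydroxymethyltransferase, an enzyme that feeds one-carbon metabolism and with it the supply of methyl groups. The vector group received the empty retrovirus. Infected cells were given to irradiated wild type mice and B220-positive cells were taken from their spleens, as the RNA-seq and ChIP-seq labels state. The ERRBS labels (enhanced reduced representation bisulfite sequencing, which reads CpG-rich DNA) give only the cells, the model and the vector, and 2 of the SHMT2 libraries carry SHMT3 and SHMT4 in a transfection label, where the titles were followed. RNA-seq and ERRBS had 3 SHMT2 and 3 vector libraries each, H3K4me3 ChIP-seq had 3 SHMT2 and 2 vector libraries, and H3K4me1 ChIP-seq had 2 of each. Whether the libraries within a group are from different mice is not stated, and the p-values below speak only to how far these samples differ from one another, which may be technical.

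The libraries were not alike in what they held besides B cells. Cd79a, part of the B cell receptor, was listed at 737, 774 and 770.4 TPM in SHMT2 libraries and 655, 522 and 631 TPM in vector libraries. Ms4a1, which encodes CD20, was listed at 344, 340 and 389 TPM in SHMT2 libraries and 297, 146 and 221 TPM in vector libraries, so both B cell markers were present throughout and lowest in vector replicate 2. The 8 erythroid markers summed to 50.5 to 140 TPM in SHMT2 libraries, against 57.3, 3669 and 708 TPM in vector replicates 1, 2 and 3. The 8 macrophage and myeloid markers summed to 108 to 153 TPM in SHMT2 libraries, against 96.1, 671 and 657 TPM in vector replicates 1, 2 and 3. Vector replicates 2 and 3 therefore stand apart from the other 4 libraries, no marker of either list was at 0 in any library, and fold changes without these 2 libraries are given where they move. In bulk RNA, fewer cells of a type and less RNA per cell cannot be told apart. Shmt2 itself was listed at 244, 345 and 259 TPM in SHMT2 libraries and 174, 223 and 157 TPM in vector libraries. The sequencing depth of the RNA libraries is unknown. The ERRBS libraries listed 1330340 to 1424115 cytosines each, read 63.0 to 71.6 times on average, the H3K4me3 lists held 33313 to 38249 peaks and the H3K4me1 lists 33119 to 52056.

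The PRC2 genes lie at separate places in GRCm38.p6, with Ezh1 at chr11:101191115-101226463, Ezh2 at chr6:47530274-47595270, Eed at chr7:89954654-89980976 and Suz12 at chr11:79993106-80034123. Of the PRC1 genes, Ring1 at chr17:34020792-34024680, Rnf2 at chr1:151469398-151500991, Bmi1 at chr2:18677018-18686629 and Cbx7 at chr15:79915804-79971143 lie apart, while Cbx2 at chr11:119023019-119031275 and Cbx8 at chr11:119036303-119040913 are neighbours.

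The stretch of DNA in front of most members is rich in CpG, the dinucleotide at which DNA is methylated. Promoter sequences from RefSeq (GRCm38.p6, also called mm10), each 250 bases before to 50 bases after the annotated start, were found for 9 of the 10 members, all but Cbx2. Of these 300 bases, CpGs were counted as 41 in Suz12, 37 in Ring1, 33 in Cbx7, 31 in Ezh2, 30 in Rnf2, 24 in Cbx8, 23 each in Bmi1 and Ezh1, and 17 in Eed, against a median of 7 over all 32851 RefSeq promoters. Those of Ezh2 and Suz12 are printed because they alone among the 9 hold a match to the E2F letters searched (TTTCCCGC, TTTGGCGC, TTTCGCGC or TTTGCCGC on either strand). The Ring1 and Cbx7 promoters are printed because these 2 genes had the largest positive and the largest negative log2 fold change among the tested members. Capitals mark CpGs, and each sequence runs 5′ to 3′ in the direction of its gene.
Ezh2 (chr6:47594981-47595280, minus strand): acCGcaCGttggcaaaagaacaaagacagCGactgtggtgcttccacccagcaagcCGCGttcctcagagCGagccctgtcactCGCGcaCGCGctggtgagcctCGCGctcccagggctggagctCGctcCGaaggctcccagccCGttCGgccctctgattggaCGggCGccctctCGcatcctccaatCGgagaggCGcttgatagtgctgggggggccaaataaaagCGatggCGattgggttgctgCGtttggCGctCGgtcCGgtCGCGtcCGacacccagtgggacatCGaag
Suz12 (chr11:79992856-79993155, plus strand): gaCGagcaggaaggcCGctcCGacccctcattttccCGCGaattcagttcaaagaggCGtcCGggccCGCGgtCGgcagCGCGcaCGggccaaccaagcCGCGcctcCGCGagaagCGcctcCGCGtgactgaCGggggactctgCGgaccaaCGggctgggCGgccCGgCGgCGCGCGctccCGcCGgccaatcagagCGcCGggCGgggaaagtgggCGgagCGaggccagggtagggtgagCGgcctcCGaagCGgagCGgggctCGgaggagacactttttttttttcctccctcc
Ring1 (chr17:34024631-34024930, minus strand): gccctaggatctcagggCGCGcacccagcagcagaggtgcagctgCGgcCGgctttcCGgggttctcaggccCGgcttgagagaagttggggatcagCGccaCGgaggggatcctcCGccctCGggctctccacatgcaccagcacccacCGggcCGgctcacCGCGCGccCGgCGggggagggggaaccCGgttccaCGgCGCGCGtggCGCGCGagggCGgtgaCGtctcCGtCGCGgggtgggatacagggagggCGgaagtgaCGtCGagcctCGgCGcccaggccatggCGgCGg
Cbx7 (chr15:79932597-79932896, minus strand): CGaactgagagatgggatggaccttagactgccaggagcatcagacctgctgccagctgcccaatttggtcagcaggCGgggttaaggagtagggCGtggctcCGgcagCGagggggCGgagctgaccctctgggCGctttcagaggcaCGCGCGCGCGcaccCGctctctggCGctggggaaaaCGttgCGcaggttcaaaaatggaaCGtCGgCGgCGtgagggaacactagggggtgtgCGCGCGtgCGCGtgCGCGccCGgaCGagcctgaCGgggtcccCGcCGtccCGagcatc

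E2F proteins drive genes of the cell division cycle. The match in Ezh2 reads TTTGGCGC from base 254, just inside the transcribed stretch, and the one in Suz12 reads TTTCCCGC from base 32. Of all RefSeq promoters 2.26% hold one of these 8-letter words. The YY1 letters AAGATGGC, the palindromic NRF1 word and the TATA box, searched on both strands, occurred in 0 of the 9 member promoters and in 2.75%, 0.971% and 13.6% of all promoters. A match describes letters, and no match says only that these letters are not in this window.

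The level of the members in these B cells spanned about 2 orders of magnitude. TPM divides by transcript length, but some genes are listed at implausible levels (Kdm6a at 5162 to 21951 TPM), so levels between genes are doubtful and are given only as listed. The mean over the 6 libraries was 74.1 TPM for Cbx7, 70.4 for Suz12, 56.7 for Rnf2, 56.1 for Bmi1, 34.5 for Ring1, 22.9 for Ezh2, 22.5 for Eed, 15.7 for Ezh1, 6.06 for Cbx8 and 0.752 for Cbx2. The library values of each neighbouring pair in this order overlap down to Ring1, as do those of Ezh2 and Eed. Cbx2, a CBX protein that can compact chromatin, lay under the filter of a mean of 1 TPM and was not tested.

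No member changed by the test across all genes. Expression was compared by limma on log2(TPM + 1) in 11117 genes, of which 0 (0%) were called at a Benjamini-Hochberg adjusted p under 0.05, while 1858 (16.7%) had an unadjusted p under 0.05. Of the 9 members tested, 0 were called and 1, Ring1, had an unadjusted p under 0.05. Among the 9, 5 had a positive and 4 a negative log2 fold change, with a median of 0.07, beside a median of 0.02 over all genes tested.

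**Figure D1:**
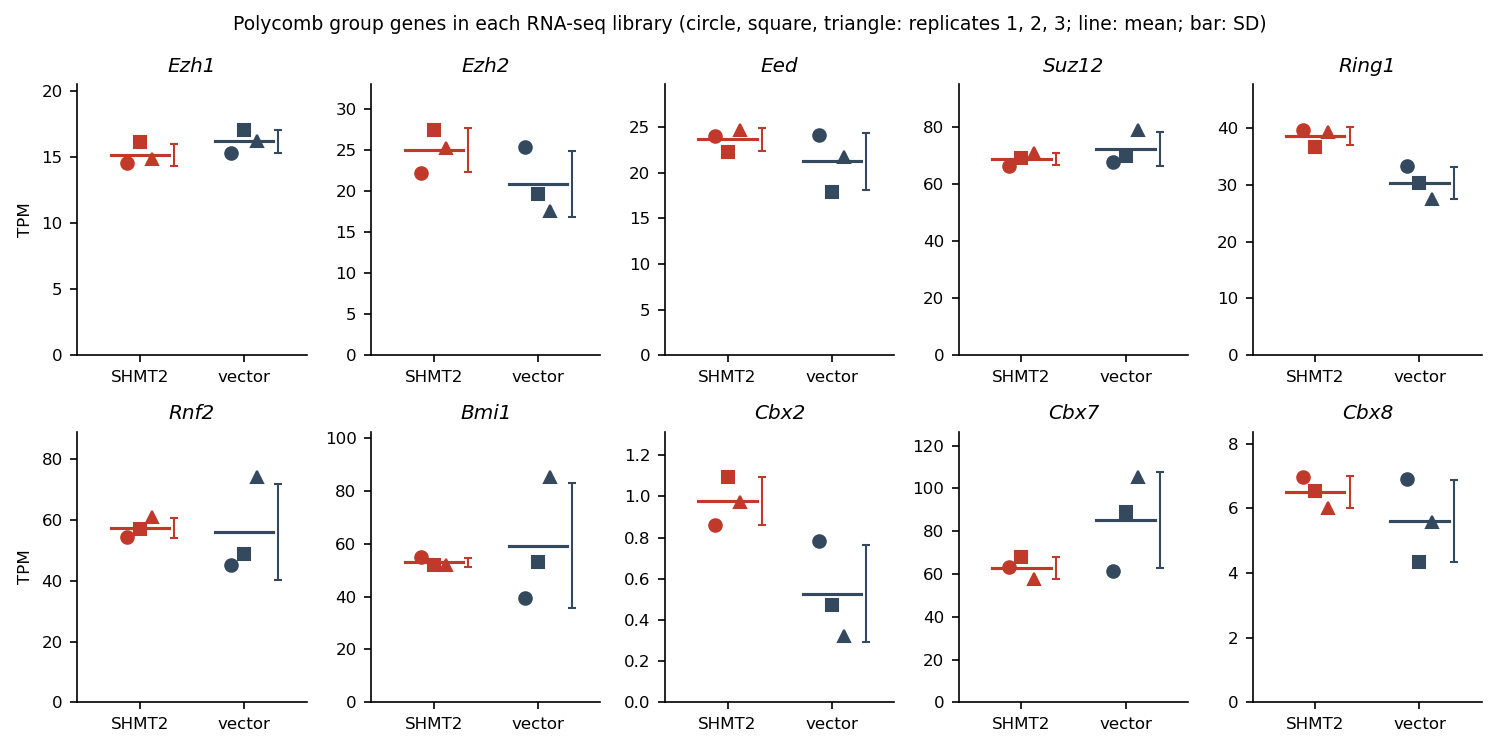
TPM of the 10 members, 1 panel per gene, in the 3 SHMT2 libraries (left, red) and the 3 vector libraries (right, dark), with mean and SD; each panel has its own axis from 0. The groups do not overlap for Ring1 and Cbx2, and for Bmi1, Rnf2 and Cbx7 the 3 vector libraries are spread more widely than the 3 SHMT2 libraries.

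Among PRC2 genes, Ezh2 was listed at 22.2, 27.5 and 25.3 TPM in SHMT2 libraries and 25.4, 19.7 and 17.6 TPM in vector libraries. Vector replicate 1 lay among the SHMT2 libraries, and the 2 lowest values were vector replicates 2 and 3. Among germinal centre markers, Bcl6, the transcription factor that germinal centre B cells need, was listed at 245, 336 and 348 TPM in SHMT2 libraries and 498, 143 and 256 TPM in vector libraries. S1pr2, a receptor that keeps B cells in the germinal centre, was listed at 308, 655 and 538 TPM in SHMT2 libraries and 668, 154 and 407 TPM in vector libraries. Both were, like Ezh2, lowest in replicate 1 among SHMT2 libraries and highest in replicate 1 among vector libraries, and their part in the Ezh2 values was not tested. The log2 fold change came to 0.26 (SE 0.16) with an adjusted p of 0.430 by limma and an exact two-sided permutation p of 0.3, where 0.1 is the smallest that 3 against 3 can give. It was −0.026 with vector replicate 1 as the sole vector library. With a covariate for the erythroid and myeloid markers, which are high in vector replicates 2 and 3, it was 0.05 (limma, adjusted p = 0.902). Ezh1, the enzyme that can stand in for EZH2 and is known to prevail in resting cells, was listed at 14.5, 16.1 and 14.8 TPM in SHMT2 libraries and 15.3, 17.1 and 16.2 TPM in vector libraries. The 6 values of Ezh1 differ by 1.18-fold at most and the groups overlap, with a log2 fold change of −0.09 (SE 0.09, limma adjusted p = 0.626), and −0.015 with vector replicate 1 alone. Set over Ezh1 within each library, Ezh2 stood at 1.53, 1.70 and 1.70 in SHMT2 libraries, against 1.66, 1.15 and 1.09 in vector libraries. Ezh2 was thus listed above Ezh1 in all 6 libraries, least so in vector replicates 2 and 3.

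Eed, whose protein reads the methylated H3 tail for PRC2, had 23.99, 22.3 and 24.7 TPM in SHMT2 libraries and 24.1, 17.9 and 21.7 TPM in vector libraries. The groups overlap and the log2 fold change came to 0.16 (SE 0.13, limma adjusted p = 0.537). Suz12, the subunit that holds PRC2 together, had 66.4, 68.9 and 70.8 TPM in SHMT2 libraries and 67.6, 69.8 and 79.0 TPM in vector libraries. Its range over all 6 libraries was 1.19-fold and its log2 fold change −0.07 (SE 0.09, limma adjusted p = 0.721). Among the PRC2 genes none separated the groups.

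Among PRC1 genes, Ring1 was the tested member with the clearest difference. It had 39.8, 36.7 and 39.4 TPM in SHMT2 libraries and 33.3, 30.3 and 27.6 TPM in vector libraries. Every SHMT2 library lay above every vector library, as it did for 1875 of 11117 genes tested (16.9%). The means were 38.6 ± 1.65 TPM in SHMT2 libraries and 30.4 ± 2.85 TPM in vector libraries (SD, n = 3 each), with a log2 fold change of 0.34 (SE 0.10) that limma gave an unadjusted p of 0.0122 and an adjusted p of 0.210. The exact permutation p was 0.1. With vector replicate 1 alone as the vector group the log2 fold change was 0.21, and it stayed positive in each of the other settings tried.

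Rnf2, whose protein is the other H2A ubiquitin ligase and the main one in most mouse cells, had 54.2, 57.1 and 60.9 TPM in SHMT2 libraries and 45.0, 48.7 and 74.1 TPM in vector libraries. The vector libraries hold both the lowest and the highest value, and the log2 fold change came to 0.07 (SE 0.19, limma adjusted p = 0.873). With vector replicate 1 alone it was 0.34, and without that library −0.067. Ring1 stood at 0.733, 0.644 and 0.647 times the Rnf2 level in SHMT2 libraries, against 0.739, 0.622 and 0.372 in vector libraries, so Rnf2 was listed above Ring1 throughout. Bmi1, the PCGF protein that keeps the Cdkn2a locus silent in blood stem cells, had 54.8, 51.9 and 52.1 TPM in SHMT2 libraries and 39.4, 53.0 and 85.2 TPM in vector libraries. The 3 SHMT2 libraries lay within 3 TPM of each other, while the vector libraries differed by 2.16-fold. Its log2 fold change came to −0.09 (SE 0.27, limma adjusted p = 0.884), 0.21 without vector replicate 3 and 0.41 with vector replicate 1 alone.

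The CBX genes went different ways in level and in spread. Cbx7, a CBX protein known for its part in lymphoid tumours and in silencing Cdkn2a, had 63.3, 67.9 and 57.7 TPM in SHMT2 libraries and 61.2, 89.2 and 105 TPM in vector libraries. Vector replicate 1 lay among the SHMT2 libraries and the other 2 vector libraries above them all. The log2 fold change came to −0.40 (SE 0.20, limma unadjusted p = 0.0967, adjusted p = 0.374). Without vector replicate 1 it was −0.62 with an adjusted p of 0.0455 by limma, where 845 genes (7.6%) were called and Cbx7 was the only member among them. With vector replicate 1 alone it was 0.037. Cbx7 is thus lower in SHMT2 libraries only against the 2 vector libraries whose erythroid and myeloid marker sums are high. With a covariate for the erythroid and myeloid markers its log2 fold change was −0.12 (limma, adjusted p = 0.803).

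Cbx8, another CBX protein of PRC1, had 6.98, 6.54 and 6.02 TPM in SHMT2 libraries and 6.91, 4.35 and 5.57 TPM in vector libraries, with a log2 fold change of 0.20 (SE 0.17, limma adjusted p = 0.554). The groups overlap through vector replicate 1. Cbx2 was listed at 0.862, 1.09 and 0.972 TPM in SHMT2 libraries and 0.785, 0.475 and 0.322 TPM in vector libraries. Its groups do not overlap, with means of 0.976 ± 0.116 TPM in SHMT2 libraries and 0.528 ± 0.236 TPM in vector libraries (SD, n = 3 each; exact permutation p = 0.1). Every SHMT2 library was likewise higher for 16.9% of the 11117 genes above the filter. The share among genes as low as Cbx2 was not counted. When genes of every level were tested, the log2 fold change of Cbx2 was 0.38 with a limma adjusted p of 0.319. Cbx7 stood at 9.08, 10.4 and 9.60 times Cbx8 in SHMT2 libraries, against 8.86, 20.5 and 18.9 in vector libraries.

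Which library was extreme differed between the members and the rest of the genes only in part. Vector replicate 3 held the highest or the lowest value for 7 of the 10 members, highest for Suz12, Rnf2, Bmi1 and Cbx7 and lowest for Ezh2, Ring1 and Cbx2. It did so for 6 of the 9 tested members and for 39.0% of all genes tested. Vector replicate 2, the commonest extreme over all genes tested at 52.6%, was so for 3 of the 10 members. The spread of log2(TPM + 1) was larger among vector than among SHMT2 libraries for 9 of the 10 members, and for 79.0% of all genes tested. Wider vector groups are thus a feature of the whole table.

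**Figure D2:**
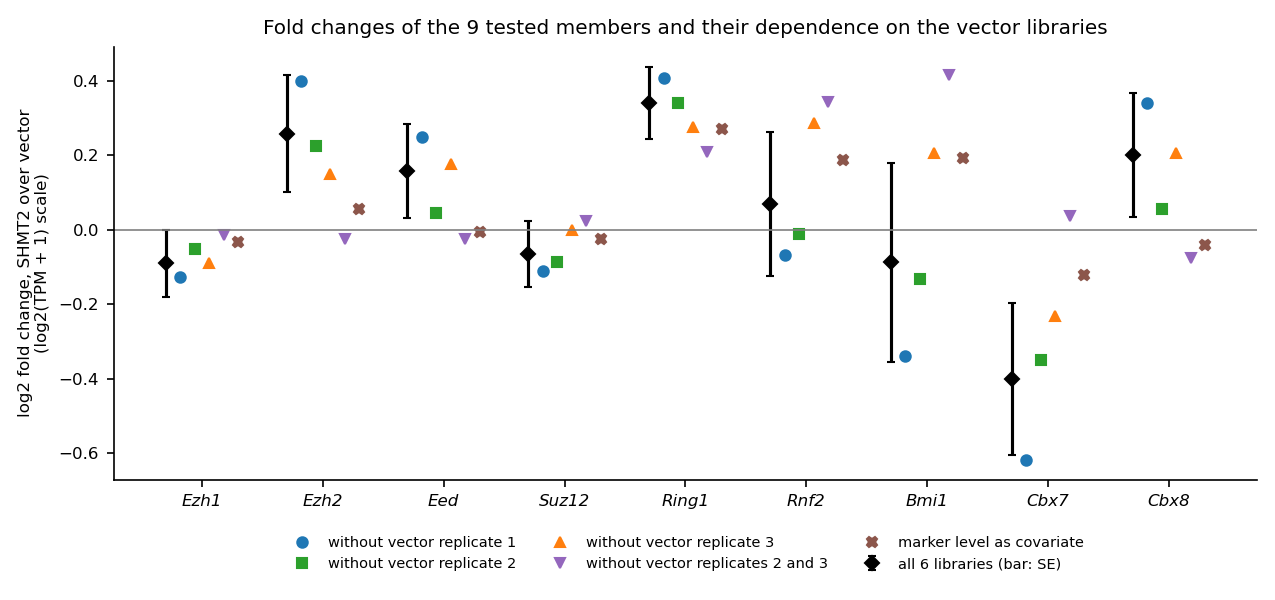
Log2 fold changes (SHMT2 over vector, on the log2(TPM + 1) scale) of the 9 tested members with all 6 libraries (diamond with SE), without each vector library, with vector replicate 1 alone, and with the mean log2(TPM + 1) of the erythroid and myeloid markers as a covariate. Ring1 stays above 0 and Ezh1 below 0 throughout, Bmi1 runs between −0.34 and 0.41, and Cbx7 between −0.62 and 0.037.

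The genes whose profile over the 6 libraries was most like that of Ezh2 were Gtf2h3, Rrs1, Ube2l3, Tada3 and Pou2f2, out of 7252 other genes averaging 10 TPM or more. Likeness was the root mean square difference of centred log2 values, 0.038 to 0.051 for these 5. Gtf2h3, a subunit of the repair and transcription factor TFIIH, had 35.1, 43.2 and 39.7 TPM in SHMT2 libraries and 39.0, 29.6 and 29.0 TPM in vector libraries, the same order of vector libraries as Ezh2. Pou2f2, the B cell transcription factor OCT2, had 50.8, 61.7 and 58.8 TPM in SHMT2 libraries and 59.9, 42.1 and 41.8 TPM in vector libraries.

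The other genes of the pathway were followed as a list of 42, of which 37 passed the filter. In that list 0 genes were called by limma, 8 had an unadjusted p under 0.05, and 13 had a positive and 24 a negative log2 fold change, with a median of −0.09 beside 0.02 over all genes. Of the 8, 6 were lower and 2 higher in SHMT2 libraries, where 600 (5.4%) of all genes tested were lower and 1258 (11.3%) higher at an unadjusted p under 0.05.

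PRC1 partners were among those 8. Phc3, a Polyhomeotic protein of PRC1 that can polymerise, had 77.2, 77.3 and 73.5 TPM in SHMT2 libraries and 101, 97.4 and 105 TPM in vector libraries. Its groups lie far apart for their spread, with a log2 fold change of −0.41 (SE 0.07, limma unadjusted p = 0.00136, adjusted p = 0.204). Without vector replicate 1, Phc3, Bcor and Rbbp7 were the 3 genes of the list that limma called, of 37, near the 7.6% of all genes called in that setting. Pcgf3, of a PRC1 form without CBX proteins, had 4.96, 5.11 and 4.71 TPM in SHMT2 libraries and 5.99, 5.99 and 6.28 TPM in vector libraries. Yaf2, which takes the place of CBX in those forms, ran the other way, with 15.4, 14.0 and 15.4 TPM in SHMT2 libraries and 11.5, 10.4 and 12.97 TPM in vector libraries (log2 fold change 0.34, SE 0.11, limma adjusted p = 0.228).

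Among PRC2 partners, Rbbp7, the histone chaperone that sits in PRC2, had 16.2, 15.4 and 15.4 TPM in SHMT2 libraries and 13.7, 10.4 and 10.9 TPM in vector libraries. Lcor, whose locus also encodes a PRC2-binding protein, had 8.92, 7.96 and 7.66 TPM in SHMT2 libraries and 11.1, 9.68 and 10.9 TPM in vector libraries. The log2 fold changes were 0.40 (SE 0.12) for Rbbp7 and −0.33 (SE 0.11) for Lcor, with limma adjusted p-values of 0.214 and 0.225. Asxl2, a cofactor of the BAP1 enzyme that takes ubiquitin off histone H2A, had 35.1, 41.7 and 36.7 TPM in SHMT2 libraries and 48.4, 42.8 and 49.1 TPM in vector libraries (log2 fold change −0.30, SE 0.10, limma adjusted p = 0.247). None passed the adjusted threshold. Over the whole list of 37, the SHMT2 libraries lay above all vector libraries for 4 genes and below them for 7, beside 16.9% and 8.26% of all genes tested.

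Of 5 genes known as Polycomb targets, 5 had a negative log2 fold change and 0 were called, with a median of −0.27. Prdm1, the master regulator of plasma cells that EZH2 holds down in germinal centre B cells, had 46.2, 75.4 and 62.6 TPM in SHMT2 libraries and 86.9, 85.5 and 100.1 TPM in vector libraries. Its groups do not overlap, as is so with the SHMT2 libraries lower for 918 (8.26%) of all genes tested, and its log2 fold change came to −0.58 (SE 0.19, limma unadjusted p = 0.020, adjusted p = 0.227). The other 4 plasma cell markers followed did not go with Prdm1, and 0 were called. Mzb1, a chaperone of antibody assembly, was listed at 326, 309 and 313 TPM in SHMT2 libraries and 238, 182 and 250.05 TPM in vector libraries (log2 fold change 0.51, SE 0.13, limma adjusted p = 0.205), and Sdc1, Jchain and Xbp1 had log2 fold changes of 0.39, 0.20 and 0.08 with groups that overlap. Cdkn1a, which encodes the cell cycle inhibitor p21, had 11.6, 9.82 and 10.4 TPM in SHMT2 libraries and 11.6, 12.3 and 26.2 TPM in vector libraries, the first vector value barely above the first SHMT2 value. Cdkn2a, the classic PRC1 target, had 1.81, 2.41 and 1.85 TPM in SHMT2 libraries and 2.92, 1.13 and 3.01 TPM in vector libraries, with groups that overlap. The part of the other cell types in these differences was not tested.

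**Figure D3:**
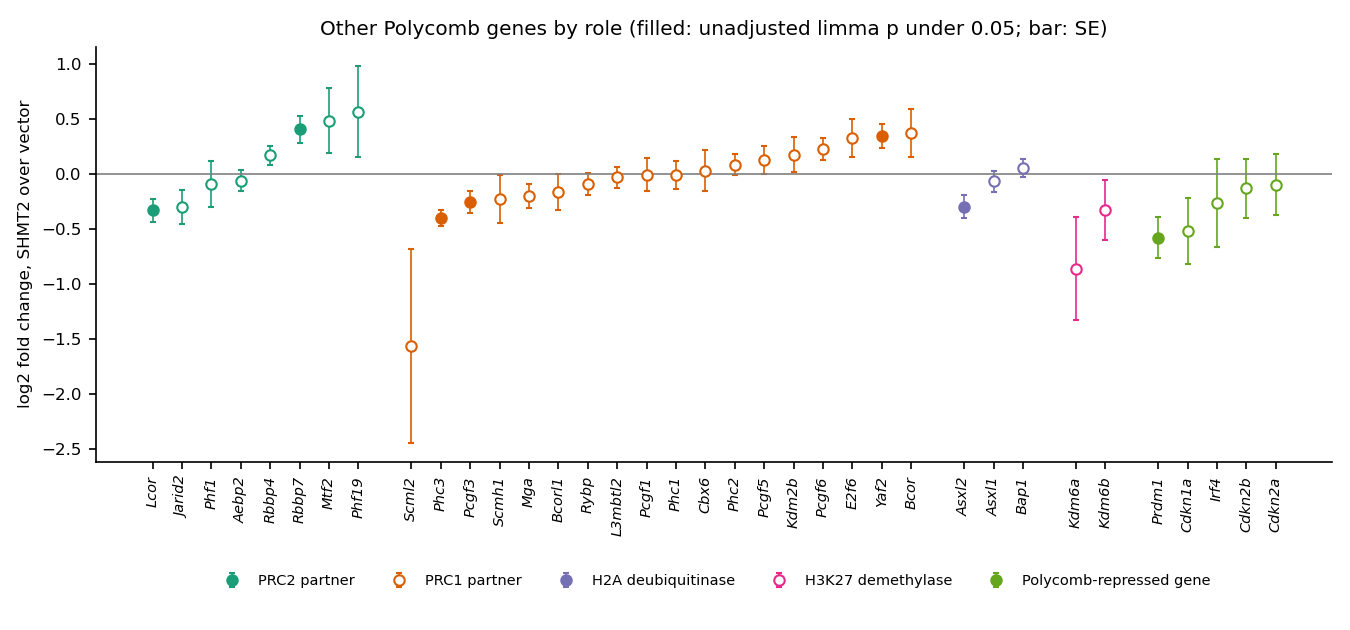
Log2 fold changes (SHMT2 over vector, with SE) of 36 other Polycomb genes tested, grouped by role and ordered within each role. The 7 filled points have an unadjusted limma p under 0.05, 5 below and 2 above 0. The point of Scml2 at −1.57 has an adjusted p of 0.402.

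The starts of the members were almost free of DNA methylation in both groups. Methylation was summed over the CpG cytosines within 1 kb of a start, as the percent of calls that read as methylated, and windows were tested by a quasi-binomial F test that takes in the spread between libraries. The 10 start windows (9 RefSeq starts and, for Cbx2, the lower-coordinate end of its span, taken as its start) held 29 to 184 cytosines and 2605 to 11618 calls per library. Their methylation lay between 0.038% and 1.27% in every library, and under 0.86% outside Cbx7. The median over 16001 RefSeq start windows was 0.751%, and 58.8% of them lay under 2%, so a bare start is common in this assay.

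Of 15741 gene-end windows tested, 0 were called at an adjusted p under 0.05 with a difference of at least 10 points, and 530 (3.37%) had an unadjusted p under 0.05. The members had 10 testable windows, of which 0 were called and 1 had an unadjusted p under 0.05. At the Ezh2 end that holds its start, 0.45%, 0.10% and 0.51% of calls were methylated in SHMT2 libraries, against 0.59%, 0.35% and 0.27% in vector libraries. At the Ring1 start the values were 0.61%, 0.57% and 0.70% in SHMT2 libraries and 0.85%, 0.38% and 0.78% in vector libraries. Both genes overlap between groups, and in the printed promoters the covered CpGs were nearly all unmethylated. In the Ring1 promoter 28 cytosines were covered, with 0.202%, 0.125% and 0.090% methylated in SHMT2 libraries and 0.080%, 0.155% and 0.315% in vector libraries. In the Suz12 promoter, 29 covered cytosines gave 0.061%, 0.150% and 0.269% in SHMT2 libraries and 0.031%, 0.032% and 0.116% in vector libraries. Differences of this size rest on few methylated calls.

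Cbx8 was the one member with a gene-end window at an unadjusted p under 0.05. Its start window had 0.35%, 0.39% and 0.038% in SHMT2 libraries and 0.65%, 0.76% and 0.72% in vector libraries, a difference of −0.45 points (unadjusted p = 0.0294, adjusted p = 0.885, quasi-binomial F test). The groups do not overlap, as in 713 (4.4%) of gene-end windows with SHMT2 lower. Within 500 bases on either side of the start the difference was −0.091 points. In the 300-base promoter of Cbx8, 0 cytosines were covered. The other end of Cbx8 was partly methylated, at 39.0%, 53.6% and 28.04% in SHMT2 libraries and 26.9%, 30.8% and 28.5% in vector libraries. That difference of 11.5 points was the largest of the member windows, it rests on 10 cytosines, the groups overlap, and it did not pass, with 4.80 points without SHMT2 replicate 2 and 17.6 without SHMT2 replicate 3 (unadjusted p = 0.159, adjusted p = 0.885, quasi-binomial F test).

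In 1 kb tiles along each gene and 5 kb on either side, 0 of 87211 tiles were called and 3167 (3.63%) had an unadjusted p under 0.05. The members had 51 tested tiles, with 0 called and 6 at an unadjusted p under 0.05, of which 5 lie at Cbx8 and share one stretch of DNA. In front of the Cbx8 start, tile chr11:119042001-119043000 had 5.47%, 5.12% and 5.17% in SHMT2 libraries and 4.35%, 3.30% and 3.24% in vector libraries (unadjusted p = 0.0148). The next tile outward, chr11:119043001-119044000, had 4.35%, 5.67% and 4.06% in SHMT2 libraries and 2.59%, 2.86% and 3.01% in vector libraries (unadjusted p = 0.0112). In both tiles every SHMT2 library is above every vector library, by 1.62 and 1.88 points on average. Of 52 member tiles with at least 3 cytosines, 5 had every SHMT2 library higher and 3 every SHMT2 library lower, beside 3.9% and 4.91% of all 89375 such tiles. The tile beyond, chr11:119044001-119045000, had 17.4%, 19.5% and 12.3% in SHMT2 libraries and 12.5%, 10.7% and 12.1% in vector libraries, with groups that overlap (unadjusted p = 0.0208). At the far end of Cbx8, tile chr11:119036001-119037000 had 42.8%, 45.9% and 30.7% in SHMT2 libraries and 25.6%, 29.7% and 26.6% in vector libraries (unadjusted p = 0.0358). The tile next to the start, chr11:119041001-119042000, lies wholly in front of it. That tile nearly repeats the values of the start window and was lower in SHMT2 libraries. All 6 tiles have an adjusted p of 0.897 by the quasi-binomial F test.

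**Figure D4:**
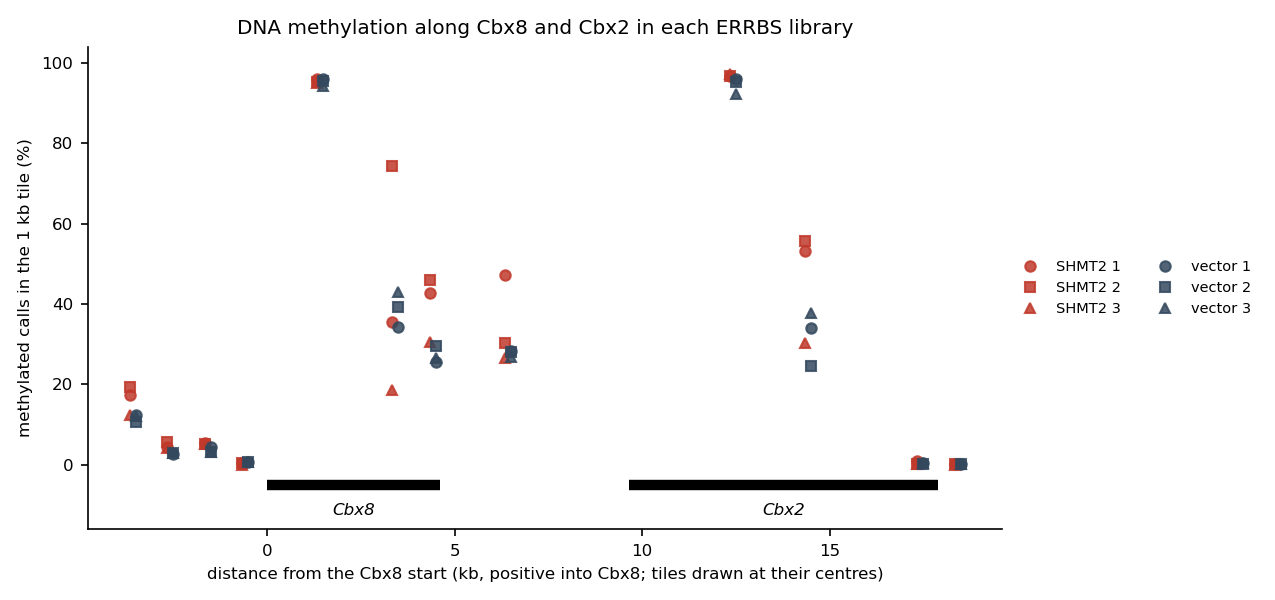
Percent of methylated calls in 1 kb tiles with at least 3 cytosines against the distance from the Cbx8 start in kb, for each of the 3 SHMT2 (red) and 3 vector (dark) libraries, with the spans of Cbx8 and Cbx2 as black bars. The tile at the Cbx2 start and the tile next to the Cbx8 start are near 0. Inside each gene 1 tile is nearly fully methylated in all libraries, and the other tiles lie between. SHMT2 replicate 3 is below SHMT2 replicate 2 in each of the 4 partly methylated tiles from 3 to 15 kb.

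A pair of partly methylated tiles differed more among SHMT2 libraries than among vector libraries. Inside Cbx2, tile chr11:119026001-119027000 had 53.1%, 55.6% and 30.2% in SHMT2 libraries and 34.0%, 24.7% and 37.7% in vector libraries, the largest difference among member tiles with at least 3 cytosines, at 14.2 points (unadjusted p = 0.0797, quasi-binomial F test). Inside Cbx8, tile chr11:119037001-119038000 had 35.7%, 74.3% and 18.7% in SHMT2 libraries and 34.3%, 39.3% and 43.0% in vector libraries. SHMT2 replicate 3 was low in both tiles. The remaining tile at an unadjusted p under 0.05 lay beyond the end of Bmi1, at chr2:18689001-18690000, with 5.56%, 6.68% and 4.76% in SHMT2 libraries and 3.64%, 2.67% and 3.33% in vector libraries (unadjusted p = 0.00275). That tile overlaps the neighbouring gene Gm46725. Within Bmi1, tile chr2:18681001-18682000 had 16.2%, 34.5% and 9.23% in SHMT2 libraries and 12.4%, 5.27% and 7.79% in vector libraries, a difference of 11.5 points led by SHMT2 replicate 2 (unadjusted p = 0.0648, quasi-binomial F test).

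H3K4me3, the mark of active promoters, lay at the start of every member in every library. A peak within 1 kb of a gene end was present in all 5 libraries for 9 of the 10 members, as for 11188 (54.1%) of 20665 genes. Cbx7 was the exception, since the ends of its annotated span lie away from its start, and its RefSeq start carried a peak in all 5 libraries. No member had such a peak in the SHMT2 libraries alone, as 48 genes (0.232%) had, or in the vector libraries alone. Peak heights are the fold enrichments the authors' caller gave, and they rank peaks within a list. At the Suz12 start the highest peak had a fold of 59.3, 53.1 and 47.3 in SHMT2 libraries and 46.6 and 52.4 in vector libraries, within the top 4% of each list. At the Ezh2 start it was 41.6, 36.2 and 32.4 in SHMT2 libraries and 29.7 and 35.0 in vector libraries. Cbx2, the member with the lowest RNA level, had the lowest, 14.4, 12.97 and 11.6 in SHMT2 libraries and 10.6 and 11.5 in vector libraries, near the middle of each list. The lncRNA gene Gm35829, on the minus strand, overlaps the end of the span taken as the Cbx2 start, so this peak need not be of Cbx2. Likewise F830010H11Rik, a lncRNA gene on the plus strand, overlaps the end of Ezh2 that holds its start. The peaks given for the Ezh2 start thus need not be of Ezh2 alone.

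The length under H3K4me3 peaks was taken over the gene and 5 kb on either side. It was longer in every SHMT2 library than in every vector library for 1 member, Bmi1. That was so for 23.5% of all genes and 34.5% of the genes with any such peak. Bmi1 had 6498, 5013 and 5710 bases in SHMT2 libraries and 4682 and 4747 in vector libraries. Within that region lies the start of the neighbour Commd3, so the peaks are not of Bmi1 alone. Windows of 1 kb either side of the RefSeq start were chosen after the data were seen. In them Rnf2, Ezh2 and Eed, 3 of 9 members, had longer peaks in every SHMT2 library. So had 16% of 20085 genes and 27.1% of the genes with any peak there.

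H3K4me1, a mark of enhancers and of the flanks of promoters, was called over a longer stretch in the SHMT2 libraries at all 10 members. A peak in the gene or 5 kb on either side was present in all 4 libraries for each member, as for 12448 (60.2%) of 20665 genes. For all 10 members both SHMT2 libraries had more bases under peaks than both vector libraries. So had 60.9% of all genes and 83.8% of the genes with any such peak. The windows of Cbx2 and Cbx8 overlap and hold some of the same peaks, so the 10 are not separate results. The lists themselves differ, with 114 and 118 Mb covered in SHMT2 libraries and 77.4 and 62.6 Mb in vector libraries, and the gain at the members cannot be told apart from that of the whole lists. No test was made, since 2 libraries against 2 cannot give an exact two-sided p below 0.333.

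**Figure D5:**
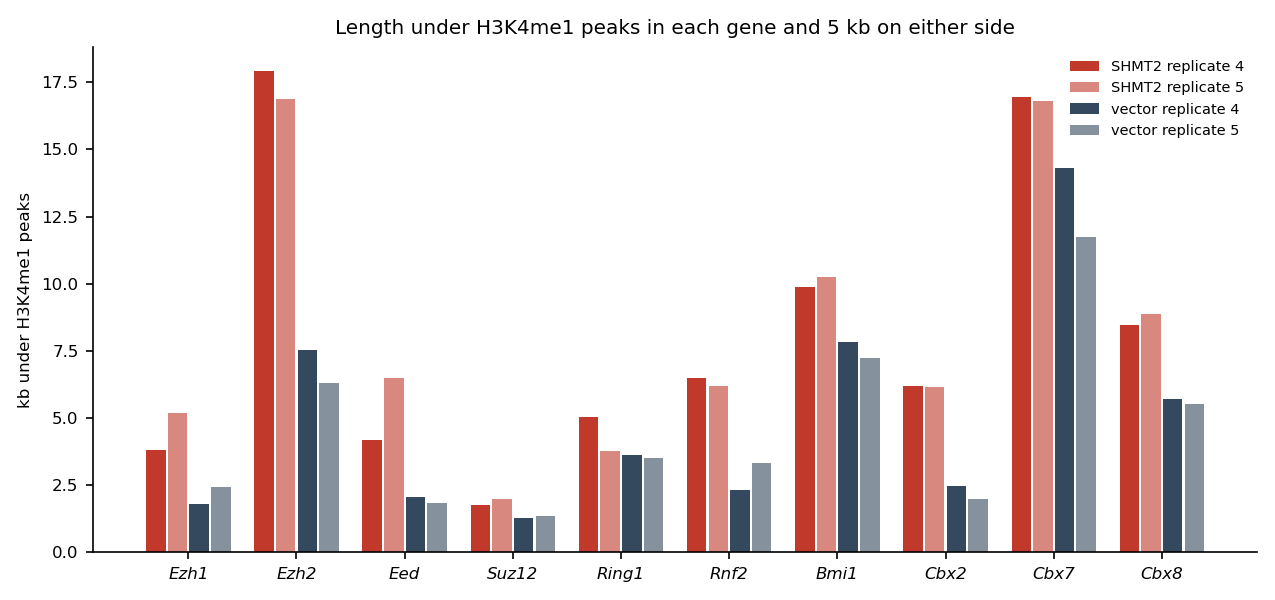
Kilobases under H3K4me1 peaks in each member and 5 kb on either side, in SHMT2 replicates 4 and 5 (red) and vector replicates 4 and 5 (dark). For all 10 genes both red bars stand above both dark bars, by the widest margin in Ezh2. The windows of Cbx2 and Cbx8 overlap.

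The size of the difference varied among members. Ezh2 had 17915 and 16891 bases in SHMT2 libraries and 7536 and 6308 in vector libraries, 2.51 times as long, which ranks at the 84.9th percentile of genes with a peak in every library. Cbx2 had 6203 and 6161 bases in SHMT2 libraries and 2467 and 1977 in vector libraries (2.78 times). Part of that length lies beyond Cbx2, in the stretch shared with the Cbx8 window. Eed had 4182 and 6498 bases in SHMT2 libraries against 2065 and 1857 in vector libraries (2.72 times). At the other end, Ring1 had 5052 and 3761 bases in SHMT2 libraries and 3615 and 3502 in vector libraries (1.24 times), and Cbx7 had 16964 and 16814 against 14301 and 11725 (1.30 times). The gene Apobec3 overlaps Cbx7, so part of that length need not be of Cbx7. Within Apobec3 lay peaks of 6330 and 6511 bases in SHMT2 libraries, and less was covered there in both vector libraries. The peak over the Cbx7 start was 9309 and 9231 bases long in SHMT2 libraries and 8841 and 8071 in vector libraries. The median ratio was 1.84 for the 10 members and 1.64 over the genes with a peak in every library. When each list was reduced to the same number of top peaks, 8 of the 10 members kept longer coverage in both SHMT2 libraries. So did 47.5% of all genes and 68.9% of the genes with any such peak, and the groups of Rnf2 and Ezh1 overlapped. For Ezh2 the ratio then was 2.29, with 17915 and 12788 bases in SHMT2 libraries and 7072 and 6308 in vector libraries.

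Close to the starts the H3K4me1 pattern split the members. Cbx7 was covered over the whole 2 kb around its RefSeq start in all 4 libraries, and Ring1 over 2001 and 1960 bases in SHMT2 libraries and 1947 and 1839 in vector libraries. Eed had 372 and 293 bases in SHMT2 libraries and 0 in both vector libraries, and Rnf2 had 80 and 549 bases in SHMT2 libraries and 0 in both vector libraries. A peak in both SHMT2 libraries and no vector library at the start was found for these 2 of 9 members and for 1109 (5.52%) of 20085 genes, and for the same 2 members and 2.48% of genes with the same number of top peaks in each list. The Rnf2 case depends on where the window begins, at chr1:151499991. In SHMT2 replicate 4 the only peak in the window ends at 151500070. The nearest peaks of vector replicates 4 and 5 end at 151499824 and 151499562, just short of the window. In all, 6 of 9 members had more covered bases around the start in both SHMT2 libraries. So had 40.1% of genes and 64.6% of the genes with any peak there. Suz12 had 344 and 645 bases in SHMT2 libraries and 50 and 8 in vector libraries, so its vector peaks only touch the window, and with the same number of top peaks it had 0 and 269 bases in SHMT2 libraries and 50 and 8 in vector libraries. At Ezh2 the start windows overlap, with 359 and 379 bases in SHMT2 libraries and 409 and 243 in vector libraries, so its longer coverage lies elsewhere in the gene.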

How the data were processed

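The RNA-seq files hold TPM made by the authors, 1 table per library; STAR and mm10 are named in the submitters' processing notes, and the tool that made TPM, and whether it used strand, are not given in the sources used here. Genes averaging 1 TPM or more were fitted with limma 3.58.1 in R 4.3.3 (log2(TPM + 1), empirical Bayes with trend, no block, Benjamini-Hochberg adjustment); log2 fold changes refer to TPM + 1, so those of low genes are understated. MACS2 and BWA are named in the submitters' processing notes; the deposited peak lists, 1 per library, give a fold (ratio) and a −log10 q-value per peak, which are the authors' values. Per the file headers the ERRBS files give coverage as a count and the percent that were C (methylated) and T; Bismark and Bowtie2 are named in the processing notes. Cytosines on autosomes with at least 10 calls in all 6 libraries were used, and methylated calls were recovered from coverage and percent. Windows and tiles with at least 3 cytosines and at least 10 methylated and 10 unmethylated calls were tested with a binomial model whose overdispersion was moderated across windows. Gene positions came from RefSeq (GRCm38.p6). The members and lists were chosen with earlier results of these data known. Named genes are all 10 members, list genes at an unadjusted p under 0.05, the 5 genes most like Ezh2, windows and tiles at an unadjusted p under 0.05 or with the largest difference, and peaks in one group alone; other genes and tiles given were chosen after their values were seen. Both models were tested on simulated data. The 6 input libraries were not used here. Alternatives were other pseudocounts, filters, scalings, coverage minimums, window sizes, peak thresholds, a pooled Fisher's exact test and each library left out. RefSeq-start windows and H3K4me1 lengths were added after the data were seen. One gene of the Polycomb list and 2 marker genes enter the counts and fits but are not reported here.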

Additional observations from a re-analysis of the deposited data

How the results depend on the processing

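No RNA gene, member or list gene was called by limma in most settings. Leaving out 1 library gave 0 to 845 genes, 0 to 1 members and 0 to 3 list genes called, all of the calls without vector replicate 1; 6 genes were called without vector replicates 2 and 3 (a lone vector library, assumed to vary like the SHMT2 libraries), and 1 gene with the marker level as a covariate. Without vector replicates 2 and 3 the log2 fold change turned sign for Ezh2 (−0.026), Eed (−0.026), Suz12 (0.023), Bmi1 (0.41), Cbx7 (0.037) and Cbx8 (−0.077), and with the covariate for Eed (−0.0052), Bmi1 (0.19) and Cbx8 (−0.042). With 1 library left out, Rnf2 ran from −0.067 to 0.29 and Bmi1 from −0.34 to 0.21. The cause was not tested.

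A replicate block, for which the numbers gave no ground, left 0 genes called; the correlations of same-numbered RNA libraries were −0.44, −0.36 and −0.022. The blocked log2 fold change of Ring1 was 0.34 (adjusted p 0.464 by limma).

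With the calls of a group pooled, Fisher's exact test (no library spread) called 747 gene-end windows, the lower-coordinate end of Cbx8 among them, and 5954 tiles; no other setting called any. Differences near 0 turned sign when 1 library was left out, in points: Bmi1 −0.061 to 0.014, Cbx2 −0.040 to 0.17, Eed −0.0097 to 0.15, Ezh1 −0.080 to 0.085, Ezh2 −0.13 to 0.074, Ring1 −0.19 to 0.048, Rnf2 −0.18 to 0.0033 and Suz12 −0.019 to 0.10. Ring1 was also 0.00017 at a coverage of at least 20 and 0.081 within 500 bases. Bounds on the mean level left only the lower-coordinate end of Cbx8 among member windows.

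All 10 members had H3K4me1 in all 4 libraries, but 0 did at −log10 q of at least 5 or of at least 10, since vector replicate 5 then has no peak at any member (1835 of its 33119 peaks reach 5); 6 of 9 RefSeq starts had one in all libraries. H3K4me1 length was longer in both SHMT2 libraries for 10 members, for 8 at −log10 q of at least 5 and for 0 at 10. RNA depth is unknown, so no floor can be given for Cbx2.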
